A study of Mus musculus with 11 samples.

Results

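The 35 autophagy and lysosome genes described here encode the machinery that builds autophagosomes, 3 cargo receptors, 7 lysosomal proteins and the 3 transcription factors of the Tfeb family. They were chosen by name, and all 35 were found by Ensembl identifier in a table of 48709 genes, where all 35 passed the filter on low counts that left 31999 genes for testing. RNA was sequenced from skeletal muscle stem cells (satellite cells) of C57BL/6 mice with the transgene Tg:Pax7-nGFP, a nuclear green fluorescent protein driven by Pax7 and carried by every group. Cells came from pectoral, forelimb and hindlimb muscles, and the age and number of the mice are not given in the sources used here. T0 cells (3 libraries) were fixed inside the muscle with 0.5% paraformaldehyde for 1 h at 4°C, before any dissociation. T3 cells (4 libraries) were isolated by flow sorting and then fixed with 0.5% paraformaldehyde for 30 min. T5 cells (4 libraries) had an added 2 h at 37°C and were fixed as T3, but the labels disagree on whether those 2 h came before or after isolation. T5 libraries that share a letter in their title were added up, which left replicates A and B.

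Autophagy wraps cytoplasm in a double membrane, the autophagosome, and delivers it to the lysosome for digestion. The Ulk kinase complex starts the process and the class III PI3-kinase marks the membrane with the lipid PI3P. Readers of that lipid bring in the enzymes that attach proteins of the Atg8 family to the membrane, and receptors tie cargo to Atg8. Tfeb, Tfe3 and Mitf are related transcription factors that switch on lysosomal and autophagy genes through the CLEAR element, whose core is the E-box CACGTG. In satellite cells autophagy is known for its part in keeping quiescent cells intact and in supplying cells that activate.

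Promoter windows of RefSeq (GRCm38.p6, 250 bases before to 50 after the start that RefSeq gives) were at hand for 28 of the 35 genes, and 8 of the 28 held the E-box core. The sites are shown because they are the letters that the Tfeb family reads, and the 8 genes that carry them are followed through the results. Each is printed 5′ to 3′ on the strand of its gene over 30 bases, with the E-box in capitals, or its 8-base palindrome TCACGTGA where present. Where a window held several, the palindrome or else the site nearest the start was taken.
Mcoln1, chr8:3500462-3500491, plus strand: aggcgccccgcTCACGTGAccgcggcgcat
Ctsd, chr7:142387908-142387937, minus strand: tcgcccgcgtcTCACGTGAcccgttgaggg
Atg3, chr16:45158746-45158775, plus strand: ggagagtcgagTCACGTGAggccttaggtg
Lamp1, chr8:13159134-13159163, plus strand: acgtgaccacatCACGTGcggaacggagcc
Atg7, chr6:114670952-114670981, plus strand: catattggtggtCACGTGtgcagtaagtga
Atg5, chr10:44268313-44268342, plus strand: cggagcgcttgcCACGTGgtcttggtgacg
Ctsl, chr13:64370739-64370768, minus strand: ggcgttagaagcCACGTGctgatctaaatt
Atg14, chr14:47568418-47568447, minus strand: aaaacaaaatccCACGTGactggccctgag
Lamp1 held 4 E-boxes, at 61, 45, 28 and 15 bases before its start. Mcoln1, Ctsd and Atg3 held 2 each, 1 of them the palindrome. The RefSeq starts of Atg7 and Atg14 lie 27999 and 2215 bases inside the GENCODE span of these genes, so their windows may not be the main promoter. Those of the other 6 lie within 1000 bases of the GENCODE start.

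Library totals were 49078859 to 67251946 counts in T0, 52632553 to 72638711 counts in T3 and 61837170 to 102347035 counts in T5. On the first principal component of log2 CPM (73.4% of the variance) the T0 replicates lay between −97.7 and −73.1 and those of T3 and T5 between 37.3 and 46.6. T0 replicate 3 stood apart for these genes. It was the lowest of the 3 T0 replicates in 35 of the 35 genes, against 49.5% of all genes tested, and counts without it are given below. The labels do not state whether separate animals gave the libraries within a group, and the p-values therefore rest on a spread between libraries that may be only technical. Levels are in CPM, counts scaled to library size, a share of the library, so fewer cells of a type and less RNA per cell cannot be told apart.

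Between T0 and T3 the list split. Fixation differed between them as well (1 h at 4°C inside the muscle, 30 min after sorting), so isolation and fixation cannot be told apart. Of the 35 genes, 14 were higher and 7 lower in T3 than in T0, and 14 were not called (edgeR's quasi-likelihood test, Benjamini-Hochberg adjusted p under 0.05 over all genes tested). The higher calls made up 40% of the genes, against 15% of all genes tested, and the lower calls 20%, against 22.9%. The median log2 fold change was 0.29, against 0.05 over all genes tested. Sqstm1, Wipi2, Gabarapl1 and Atg2a rose most, and Mcoln1, Ulk2, Nbr1, Atg7 and Pik3c3 fell most. Upper quartile factors, in place of TMM scaling, raised the median of all genes to 0.32 and gave 21 higher and 6 lower members. The share of higher calls among the members' calls moved from 66.7 to 77.8%. Over all 31999 genes the same factors moved the calls from 4807 higher and 7332 lower to 7159 and 5798. Without T0 replicate 3 there were 14 higher and 11 lower members, and 7080 higher and 8875 lower of the 31553 genes tested in that run. Among the 17 members that overlap no other annotated gene 6 were higher and 6 lower. Both shares exceed those over all genes tested (15 and 22.9%). Higher calls outnumbered lower calls only among the 18 members that do overlap one. No called gene of the list changed direction under any alternative run.

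**Figure D1:**
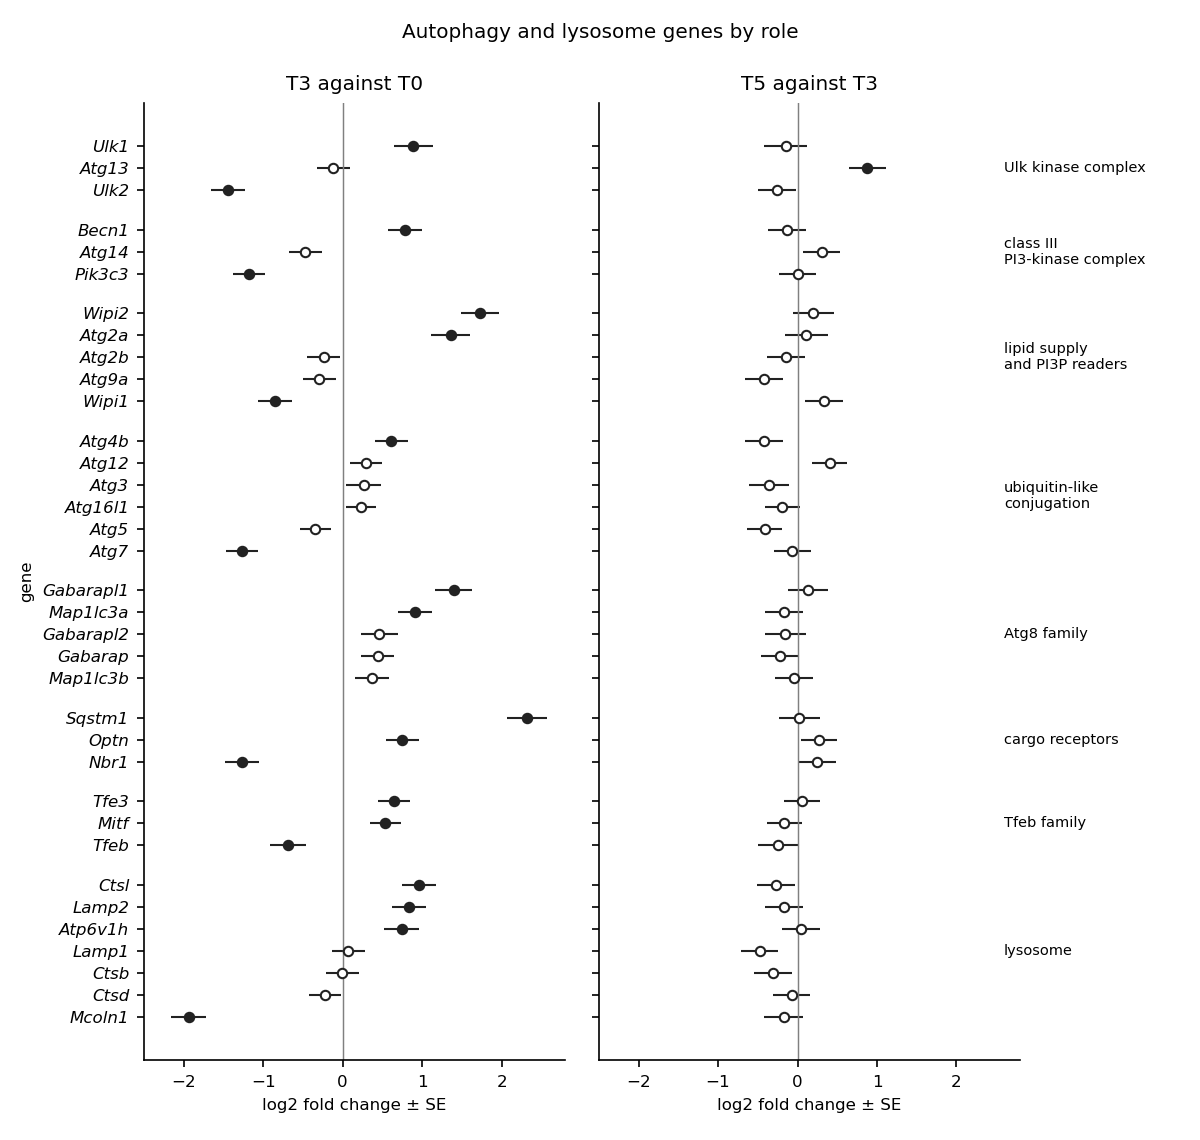
Log2 fold change ± SE of each of the 35 genes, grouped by role, for T3 against T0 (left) and T5 against T3 (right). Filled points passed an adjusted p of 0.05: 21 on the left, spread on both sides of 0, and Atg13 alone on the right.

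The Ulk kinase complex had a member in each class. Ulk2 (ENSMUSG00000004798.14, chromosome 11, 61775649 to 61855073, GRCm38), a kinase that starts autophagosome formation, measured 91.1, 84.2 and 50.5 CPM in the T0 replicates and 26.7, 26.9, 25.3 and 31.8 CPM in T3. Each T0 replicate was above each T3 replicate. It fell by 1.44 ± 0.21 on the log2 scale (SE; adjusted p = 6.88e-06). Its paralogue Ulk1 rose, from 35.7 to 83.8 CPM in T0 to 88.9 to 138 CPM in T3, by 0.89 ± 0.25 (adjusted p = 0.00553). Atg13, the scaffold subunit of the complex, lay between 18.9 and 33.5 CPM in T0 and between 22.3 and 26.9 CPM in T3, with overlapping groups (log2 fold change −0.12 ± 0.21, adjusted p = 0.716).

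The class III PI3-kinase complex, which makes PI3P, also had members on both sides. Pik3c3 (ENSMUSG00000033628.15), the catalytic lipid kinase, measured 66.0, 58.5 and 39.6 CPM in T0 and 25.7, 22.7, 23.0 and 25.2 CPM in T3. The groups did not overlap, and the gene fell by 1.18 ± 0.20 (adjusted p = 4.66e-05). Becn1, the scaffold that binds it, rose from a mean of 29.4 to 50.8 CPM (log2 fold change 0.79 ± 0.21, adjusted p = 0.00438). Becn1 shares exons with Cntd1 on the other strand, whose count was 76.8 to 84.2% of that of Becn1 in each library, so the 2 cannot be separated. Atg14, which takes the complex to the site of autophagosome formation, was not called (−0.47 ± 0.21, adjusted p = 0.0855), and shares exons with Gm49004, whose count was not used here.

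Among the PI3P readers and lipid suppliers, Wipi2 and Atg2a rose and Wipi1 fell. Wipi2 (ENSMUSG00000029578.15, chromosome 5, 142627698 to 142670588), which binds PI3P and recruits Atg16l1, measured 55.9, 50.9 and 31.1 CPM in T0 and 131, 196, 120 and 162 CPM in T3. Every T3 replicate was above every T0 replicate, a 3.31-fold rise (log2 1.73 ± 0.24, adjusted p = 3.84e-06). Atg2a (ENSMUSG00000024773.14, chromosome 19, 6241668 to 6262335), a lipid transfer protein that feeds the growing membrane, measured 40.0, 30.8 and 18.5 CPM in T0 and 63.0, 102, 69.0 and 71.0 CPM in T3. These groups did not overlap either (2.56-fold, log2 1.36 ± 0.25, adjusted p = 0.000105). Wipi1 fell by 0.85 ± 0.21 (adjusted p = 0.00218), from 17.8 to 28.0 CPM in T0 to 9.79 to 13.9 CPM in T3. Atg2b stood at 60.2 to 108 CPM in T0 and 64.2 to 80.8 CPM in T3 and was not called (−0.24 ± 0.21, adjusted p = 0.428), with Gskip on its other strand at 9.64 to 16.2% of its count. Atg9a, the membrane protein of the seed vesicles, was not called (−0.29 ± 0.21), and it shares exons with Gm29253 and Ankzf1, whose counts were 77.0 to 119% and 52.1 to 154% of its own.

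Of the 6 conjugation enzymes, Atg7 fell and Atg4b rose. Atg7 (ENSMUSG00000030314.16, chromosome 6, 114643097 to 114860614), the E1-like enzyme at the head of both conjugation reactions, measured 129, 107 and 75.6 CPM in T0 and 42.5, 45.3, 40.7 and 44.2 CPM in T3. The T3 values lay close together and below all T0 values, a fall by 1.27 ± 0.20 on the log2 scale (adjusted p = 2.05e-05). Gm19040, which lies inside it, had 2.42 to 4.54% of its count. Atg4b, the protease that primes Atg8 proteins, rose by 0.61 ± 0.21 (adjusted p = 0.0238). That call was lost in 4 of 16 alternatives (adjusted p up to 0.076), and Thap4, which overlaps the gene on the other strand, had 39.3 to 68.9% of its count. The E2-like enzyme Atg3 (0.27), and Atg12 (0.29), Atg5 (−0.34) and Atg16l1 (0.23), which form the ligase, were not called, with adjusted p between 0.183 and 0.400. Gm25395 and Scarna6, inside Atg16l1, had 25.6 to 47.7% and 8.09 to 11.6% of its count, and Mir1929, inside Atg5, at most 0.195%.

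All 5 genes of the Atg8 family had positive log2 fold changes, and 2 of them passed the test. Gabarapl1 (ENSMUSG00000030161.8, chromosome 6, 129533160 to 129542346) measured 36.9, 39.5 and 22.4 CPM in T0 and 72.4, 112, 74.4 and 88.5 CPM in T3. The lowest T3 replicate was above the highest of T0 (2.63-fold, log2 1.4 ± 0.23, adjusted p = 3.42e-05). The antisense gene 1700101I11Rik overlaps it, with 16.2 to 22.1% of its count. Map1lc3a, an LC3 gene, rose by 0.91 ± 0.21 (adjusted p = 0.00145). Gabarap (0.44), Gabarapl2 (0.46) and Map1lc3b (0.37) were not called, with overlapping groups. Per kilobase of exon, Gabarapl1 stood at 16.4 ± 4.59 CPM (SD, n = 3) and Gabarap at 14.0 ± 3.6 CPM in T0, where their ranges overlapped. In T3 Gabarapl1 stood at 43.1 ± 8.96 CPM per kilobase (n = 4), with each replicate above each replicate of the other 4 genes. Gabarap (19.0 ± 2.76) and Map1lc3a (16.7 ± 1.75) overlapped there, and Gabarapl2 (7.76 ± 1.08) and Map1lc3b (3.35 ± 0.32) followed. This order rests on exonic length, although the counts behaved as if whole gene bodies were counted. Gabarapl1 spans 9.19 kb with 2.01 kb of exon, and Map1lc3a spans 1.78 kb with 1.18 kb of exon. An order by gene span was not computed, so the lead of Gabarapl1 holds per kilobase of exon only. The level of Map1lc3b is uncertain, since Gm20388 spans it on the same strand and Zcchc14 shares its end, both with higher counts than its own.

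The 3 cargo receptors all passed the test, in both directions. Sqstm1 (ENSMUSG00000015837.15, chromosome 11, 50199366 to 50210827), which encodes p62 and links ubiquitylated cargo to Atg8, measured 142, 119 and 69.1 CPM in T0 and 483, 567, 589 and 564 CPM in T3. The highest T0 replicate was far below the lowest of T3, and this 5.0-fold rise was the largest change of the list (log2 2.32 ± 0.25, adjusted p = 1.15e-07). Mrnip, which overlaps its end on the other strand, had 4.11 to 6.64% of its count. Nbr1 (ENSMUSG00000017119.19, chromosome 11, 101552149 to 101581951), a receptor with similar domains that can bind p62, measured 125, 114 and 71.3 CPM in T0 and 34.4, 45.9, 40.5 and 50.9 CPM in T3. It fell by 1.27 ± 0.22 (adjusted p = 4.46e-05), with no overlap of the groups. Optn, a receptor for damaged mitochondria and bacteria, had low levels of 4.87 to 6.69 CPM in T0 and 8.46 to 11.5 CPM in T3 and rose by 0.75 ± 0.21 (adjusted p = 0.0055), with 4930551O13Rik on its other strand at 7.1 to 11.9% of its count.

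**Figure D2:**
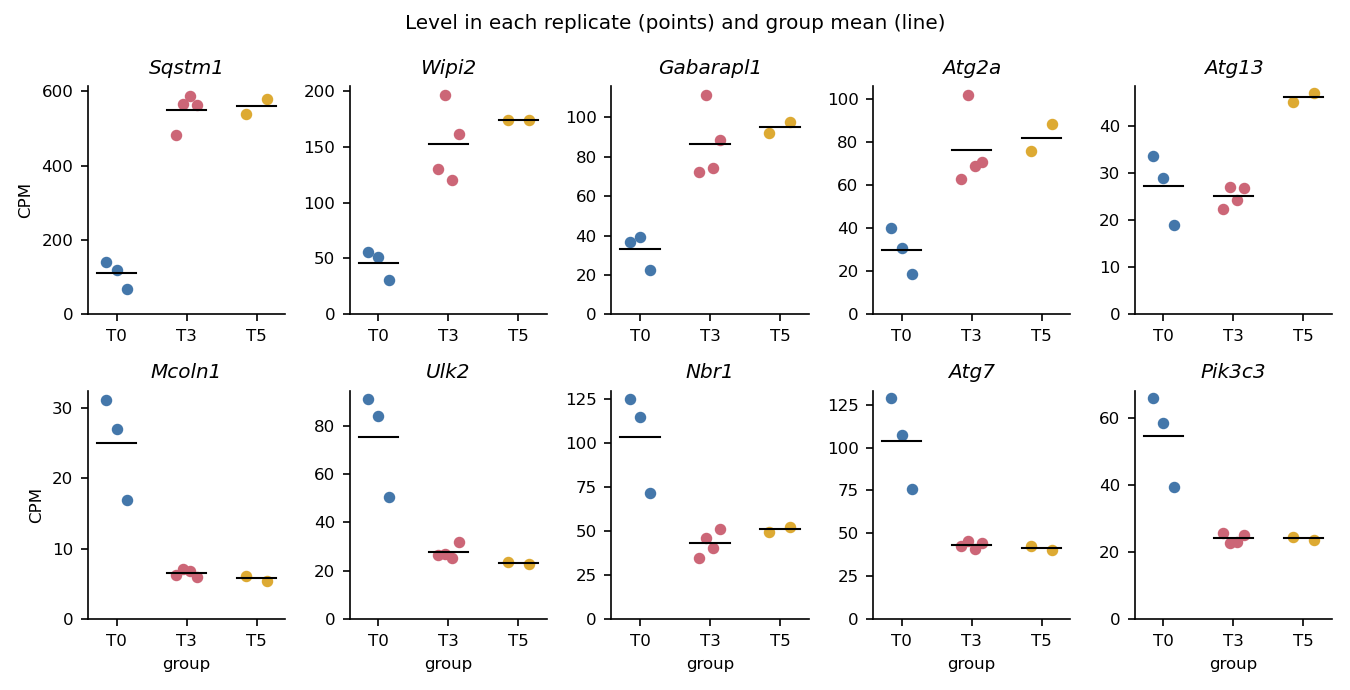
CPM in each replicate (points) and group mean (line) of the 10 genes with a called log2 change of at least 1 between T3 and T0 or a call between T5 and T3. The axes start at 0. T0 and T3 do not overlap except for Atg13, and T0 replicate 3 is the lowest T0 point in every panel.

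In the Tfeb family, Tfeb was lower and its relatives were higher, by small steps. Tfeb measured 53.6, 46.2 and 36.5 CPM in T0 and 18.4, 28.1, 36.9 and 29.5 CPM in T3, and fell by 0.69 ± 0.22 (adjusted p = 0.0161). T3 replicate 3 lay just above T0 replicate 3, which made Tfeb the only called gene of the 21 whose groups overlapped. Tfe3 measured 17.8, 16.1 and 12.2 CPM in T0 and 21.2, 25.9, 25.4 and 23.7 CPM in T3, and rose by 0.65 ± 0.20 (adjusted p = 0.0119). Mitf rose by 0.54 ± 0.19 (adjusted p = 0.0316), a call that was lost in 10 of 16 alternatives (adjusted p up to 0.198). Gm15531, inside Mitf, had at most 0.202% of its count. The Tfeb call was lost with upper quartile factors, without T0 replicate 1 and without T3 replicate 1 (adjusted p up to 0.108).

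At the lysosome, the channel Mcoln1 fell while a cathepsin, a membrane protein and a proton pump subunit rose. Mcoln1 (ENSMUSG00000004567.16, chromosome 8, 3500457 to 3515232), the calcium channel TRPML1 that acts upstream of Tfeb, measured 31.1, 27.0 and 16.9 CPM in T0 and 6.21, 7.04, 6.77 and 6.02 CPM in T3. The T3 values were narrow and all below T0, a fall by 1.94 ± 0.22 on the log2 scale (adjusted p = 1.84e-07). Ctsl, the cysteine protease cathepsin L, rose by 0.96 ± 0.21 (adjusted p = 0.000839), Lamp2, a membrane glycoprotein needed for fusion with autophagosomes, by 0.83 ± 0.22 (adjusted p = 0.00319), and Atp6v1h, a subunit of the proton pump, by 0.74 ± 0.22 (adjusted p = 0.00821). The groups did not overlap in any of these 3. Rgs20 overlaps Atp6v1h, with 12.4 to 35.1% of its count, and Ctsl shares exons with Gm47123 and Gm49230, whose counts were not used here. Lamp1 (0.07), the protease genes Ctsb (−0.0049) and Ctsd (−0.22) were not called. All 3 share exons with a neighbour whose counts reached 58.1% (Grtp1 for Lamp1), 83.4% (Gm49369 for Ctsd) and 149% (Fdft1 for Ctsb) of theirs.

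Ratios within a replicate do not move with its depth or scaling, and set genes of like function side by side. The 6 pairs were chosen after their values were seen and are given with no test. Wipi2/Wipi1, per kilobase of exon, was 0.834, 1.17 and 0.731 in T0 and 5.58, 7.32, 4.04 and 4.87 in T3. Ulk1/Ulk2 was 0.848, 0.666 and 0.652 in T0 and 3.07, 4.74, 4.10 and 3.08 in T3. In both pairs every T3 ratio was several times every T0 ratio. The change of a ratio does not depend on the length used. Its place above or below 1 does, since the counts behaved as if whole gene bodies were counted. Ulk1 spans 25.6 kb with 6.49 kb of exon, and Ulk2 spans 79.4 kb with 5.98 kb of exon. Which gene of a pair is the more abundant in T0 is therefore not settled. Sqstm1/Nbr1 was 2.33, 2.13 and 1.99 in T0 and 28.8, 25.3, 29.8 and 22.7 in T3, a 12.3-fold change of the geometric mean. Atg2a/Atg2b changed 3.04-fold, Tfe3/Tfeb 2.59-fold and Gabarapl1/Gabarap 1.94-fold. T0 replicate 3, low for every gene, gave ratios of 0.731, 0.652 and 1.99 in the first 3 pairs, the lowest T0 value in each but close to the others.

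**Figure D3:**
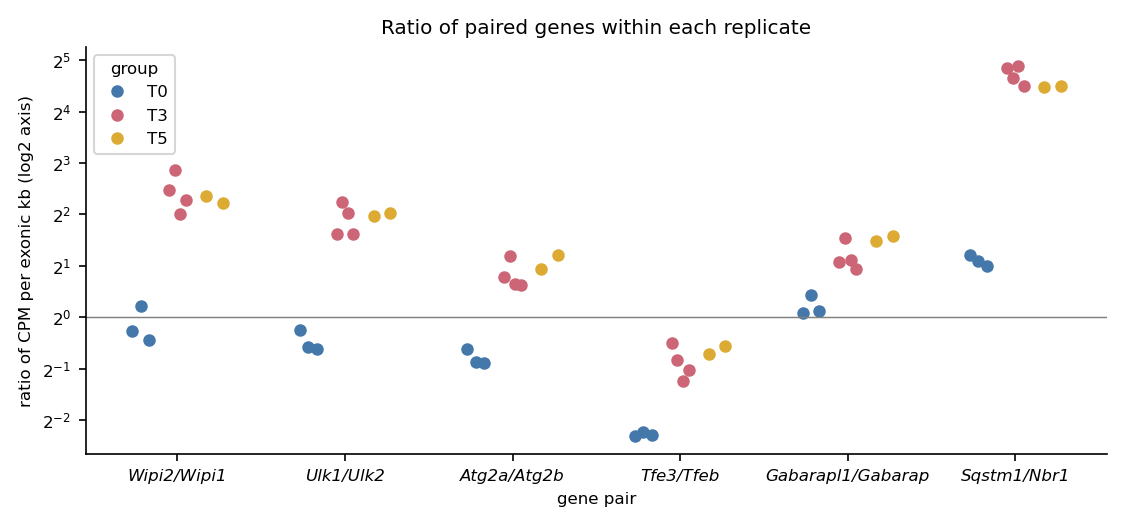
Ratio of CPM per exonic kilobase within each replicate for 6 gene pairs, on a log2 axis. The line is a ratio of 1, and the place of a pair against it depends on the length used. T0 points lie below all T3 and T5 points in each pair, and T5 stays in or near the T3 range.

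Atg13 alone was called between T5 and T3, the comparison that asks what the added 2 h did. Of the 35, 1 was higher (Atg13) and 0 were lower in T5 than in T3, against 1.28 and 0.888% of all genes tested. The median log2 fold change was −0.14, against 0.05 over all genes tested. At an unadjusted p under 0.05 edgeR also gave 1 higher and 0 lower, and the DESeq2 Wald test gave 1 higher and 3 lower, with 0 called after adjustment. Atg13 (ENSMUSG00000027244.14, chromosome 2, 91674618 to 91710576) measured 22.3, 26.9, 24.2 and 26.7 CPM in T3 and 45.0 and 47.0 CPM in T5 A and B. The 4 single T5 libraries gave 51.4, 39.8, 45.2 and 49.8 CPM, all above every T3 and T0 replicate. Its log2 fold change was 0.88 ± 0.23 (adjusted p = 0.0439). The call was lost in 9 of 15 alternatives, among them the omission of any T3 or T5 replicate, with adjusted p from 0.000708 to 0.570 and a log2 fold change from 0.76 to 0.93. The other genes given by replicate above stood in T5 as follows. Sqstm1 was at 540 and 579 CPM, Wipi2 at 174 and 174 CPM, and Gabarapl1 at 92.2 and 97.6 CPM. Mcoln1 was at 6.18 and 5.38 CPM, Ulk2 at 23.5 and 22.7 CPM, and Nbr1 at 49.6 and 52.2 CPM. Atg2a (76.0 and 88.5 CPM), Atg7 (42.5 and 40.2 CPM) and Pik3c3 (24.7 and 23.7 CPM) likewise lay near or within their T3 range, and so did Tfeb (24.1 and 23.7 CPM) and Tfe3 (23.8 and 26.2 CPM). Lamp1 had the lowest value of the list, −0.48 ± 0.24 (adjusted p = 0.406), and Atg12 the second highest, 0.41 ± 0.22 (adjusted p = 0.448).

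Set against T0, T5 had 14 higher and 8 lower members (13.2 and 22.5% of all genes tested), with a median log2 fold change of 0.21 against 0.18 over all genes. This comparison shares its T0 samples with the first and its T5 samples with the second, so its values are no separate evidence. Atg13 (0.76 ± 0.25, adjusted p = 0.0171) and Atg12 (0.70 ± 0.23, adjusted p = 0.0216) were called higher here and not in T3 against T0. Atg5 (−0.76 ± 0.24, adjusted p = 0.0145) and Atg9a (−0.72 ± 0.25, adjusted p = 0.0295) were called lower here and in neither other comparison. Over 15 alternatives the calls of Atg13, Atg12 and Atg5 were each lost in 4 (adjusted p up to 0.137, 0.173 and 0.166) and that of Atg9a, which shares exons as given above, in 6 (up to 0.258), each time also without T5 replicate A and without B. Wipi1, Atg4b and Mitf were called in T3 against T0 and not here. Whether these genes differ between the 2 comparisons is the T5 against T3 test, which called Atg13 and none of the other 6. With DESeq2 size factors 5 members were higher and 8 lower, and with upper quartile factors 20 and 5. The higher share of the calls was 63.6% with TMM, 38.5% with DESeq2 size factors and 80% with upper quartile factors. The calls over all 31999 genes moved as well. They were 4229 higher and 7184 lower with TMM, 3478 and 7373 with DESeq2 size factors, and 7144 and 5626 with upper quartile factors.

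In 6 other lists of the pathway lower calls outnumbered higher calls between T3 and T0, as they did over all genes tested (7332 lower, 4807 higher). Of 38 other lysosomal hydrolases and activators, 26 (68.4%) were lower and 4 higher in T3 than in T0, against 22.9 and 15% of all genes tested, with a median log2 fold change of −0.89. Glb1, the lysosomal beta-galactosidase, fell from a mean of 35.5 to 9.27 CPM (log2 fold change −1.94), and shares sequence with the overlapping Tmppe. The cysteine proteases Ctso (−1.79) and Ctsf (−1.60) fell, and Manba, beta-mannosidase, rose (1.51). Among 20 other lysosomal membrane proteins 12 (60%) were lower and 1 (5%) higher (median −0.64). The channel genes Tpcn1 (234 to 52.6 CPM, −2.16) and Tmem175 (−2.13, overlapped by Dgkq) and the arginine sensor Slc38a9 (−1.82, overlapped by Gm47827) fell most, and the tetraspanin gene Cd63 rose (1.26).

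Of 21 other subunits of the V-ATPase, which acidifies the lysosome, 7 were lower and 2 higher (median −0.13). These are 33.3 and 9.52%, against 22.9 and 15% of all genes tested. Atp6v0a1 (−1.72), Atp6v1a (−1.15) and Atp6v1g1 (−0.91) fell, while Atp6ap2 (from 22.1 to 47.8 CPM) and Atp6v0c (from 7.31 to 14.8 CPM) rose. Upper quartile factors gave 4 lower and 6 higher, so the balance of this list rests on the scaling, and omission of T0 replicate 2 left 4 lower.

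Of 25 other genes of autophagosome formation and fusion, 11 (44%) were lower and 5 (20%) higher (median −0.40), against 22.9 and 15% of all genes tested. With upper quartile factors 9 were lower and 10 higher. Atg4c, another Atg8 protease, fell from 35.4 to 7.66 CPM (−2.21), Atg10, the E2-like enzyme for Atg12, from 99.6 to 26.8 CPM (−1.89), and Pik3r4, the regulatory partner of Pik3c3, from 30.9 to 8.73 CPM (−1.82). Rab7, the small GTPase of late endosomes (1.26, with Gm5577 overlapping), Vmp1, a lipid scramblase (0.94, with Gm11478 inside it), and Wdr45b, a relative of the Wipi genes (0.92), rose. Of 15 other receptors 7 (46.7%) were lower and 3 (20%) higher (median −0.47). Calcoco1 (−1.94), the mitophagy receptor Fundc1 (−1.80) and Ccpg1 (−1.41, overlapped by Pigb and Gm44503) fell. The receptors Tax1bp1 (1.09), which binds ubiquitin, and Ncoa4 (1.00), which binds ferritin, and Sec62 (0.67) rose.

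Upstream, 36 genes of mTORC1, AMPK and nutrient sensing had 16 lower and 8 higher (median −0.44). These are 44.4 and 22.2%, against 22.9 and 15% of all genes tested. The sestrins, stress proteins that restrain mTORC1, split. Sesn2, partly covered by Gm12981, rose from 2.46 to 27.1 CPM (log2 fold change 3.47 ± 0.23, adjusted p = 1.77e-10), and Sesn1 fell from 223 to 71.6 CPM (−1.64). The AMPK subunit genes split too, with Prkag2 falling from 303 to 69.7 CPM (−2.12) and Prkab2 rising from 40.5 to 128 CPM (1.67); 1500035N22Rik overlaps the first and Gm17651 the second. Castor2, a relative of the arginine sensor Castor1, fell (−1.49), and Fnip1, a partner of folliculin, rose (0.87). Without T0 replicate 3 the lower counts in these 6 lists were 29, 14, 9, 13, 10 and 21, in the order given. No higher count moved by more than 1. Over all genes the lower calls went from 7332 to 8875 in that run and the higher calls from 4807 to 7080.

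Between T5 and T3, 4 genes of these lists were called, each in a different list. The higher calls made up 2.78% of the nutrient sensing list and 5% of the membrane proteins, against 1.28% of all genes tested. The lower calls made up 2.63% of the hydrolases and 4% of the autophagosome list, against 0.888%. Each share is a single gene, and the V-ATPase and receptor lists had no call. Sesn2 rose further to 62.9 CPM (1.21 ± 0.21, adjusted p = 0.00178). Cln3, a lysosomal membrane protein, rose from 7.42 to 27.2 CPM (1.87 ± 0.22, adjusted p = 1.58e-05), but Apobr overlaps it. Psap, the precursor of the saposin activators, fell from 136 to 58.6 CPM (−1.21 ± 0.27, adjusted p = 0.0127). Atg9b, at 2.2 CPM in T3 and 1.02 CPM in T5, fell by 1.11 ± 0.27 (adjusted p = 0.029), with Nos3 overlapping it. Over 15 alternatives the Cln3 call was kept in each, that of Sesn2 was lost without T5 replicate B (adjusted p = 0.102), that of Psap without T5 replicate A or B (up to 0.281), and that of Atg9b in 6 (up to 0.631).

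**Figure D4:**
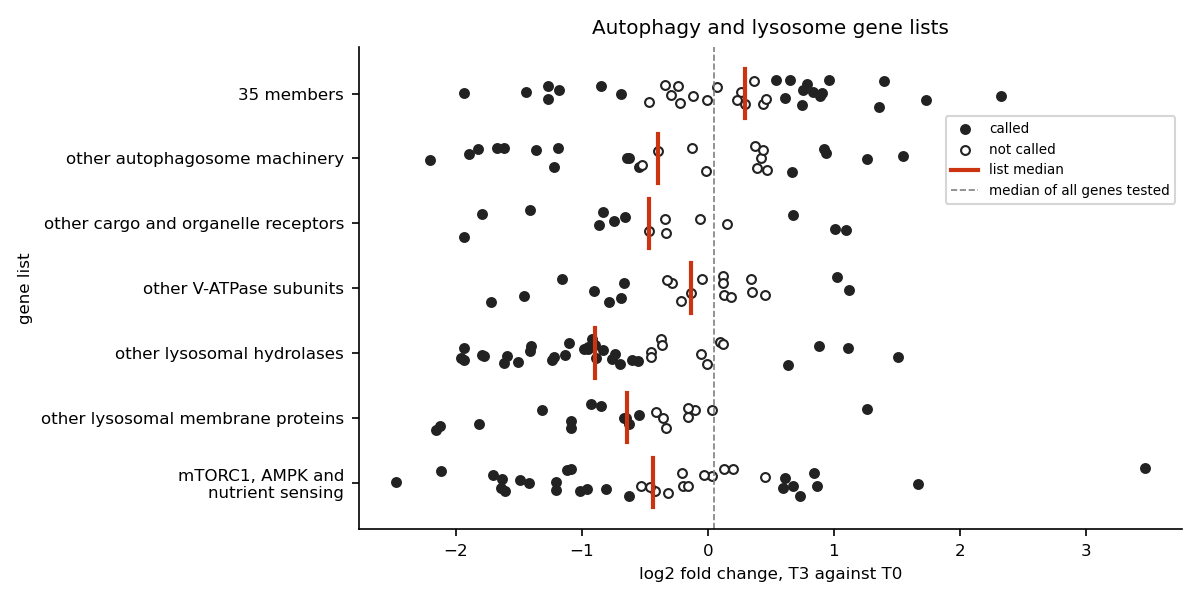
Log2 fold change of each gene, T3 against T0, for the 35 genes and 6 other lists; filled points passed an adjusted p of 0.05, red bars are list medians and the dashed line is the median of all genes tested (0.05). The 35 genes have the highest median (0.29) and the hydrolases the lowest (−0.89).

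Both directions occurred among the genes with an E-box. Of the 8, Ctsl rose, Mcoln1 and Atg7 fell and 5 were not called, with a median log2 fold change of −0.28. Over all genes tested 15% were higher and 22.9% lower, with a median of 0.05. Genes with and without an E-box were not compared by a test. Of the 20 with a window and no E-box, 10 rose, 4 fell and 6 were not called (median 0.50). Over the 24 genes whose RefSeq start lies within 1000 bases of the GENCODE start, which leaves out Atg7 and Atg14, 1 of the 6 with an E-box rose, 1 fell and 4 were not called (median −0.07), and of the other 18, 8 rose and 4 fell (median 0.45). The letters CACGTG were in 7.15% of 32851 RefSeq windows of the same length, and the palindrome TCACGTGA, which contains them, was in 0.974% and in 3 of the 28. The 3 palindrome genes were Mcoln1 (−1.94), Ctsd (−0.22) and Atg3 (0.27), and Lamp1, with 4 E-boxes, stood at 0.07. Other letters searched on both strands were TGANTCA (AP-1; Tfe3 alone, 7.81% of windows), TGACNNNGC (antioxidant response; 5 genes, 12.4%), TGATGNAAN (CEBP-ATF; Ctsl alone, 3.95%) and GTAAACA (FoxO; none of the 28, 3.65%). A match describes the letters in the window and no more.

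**Figure D5:**
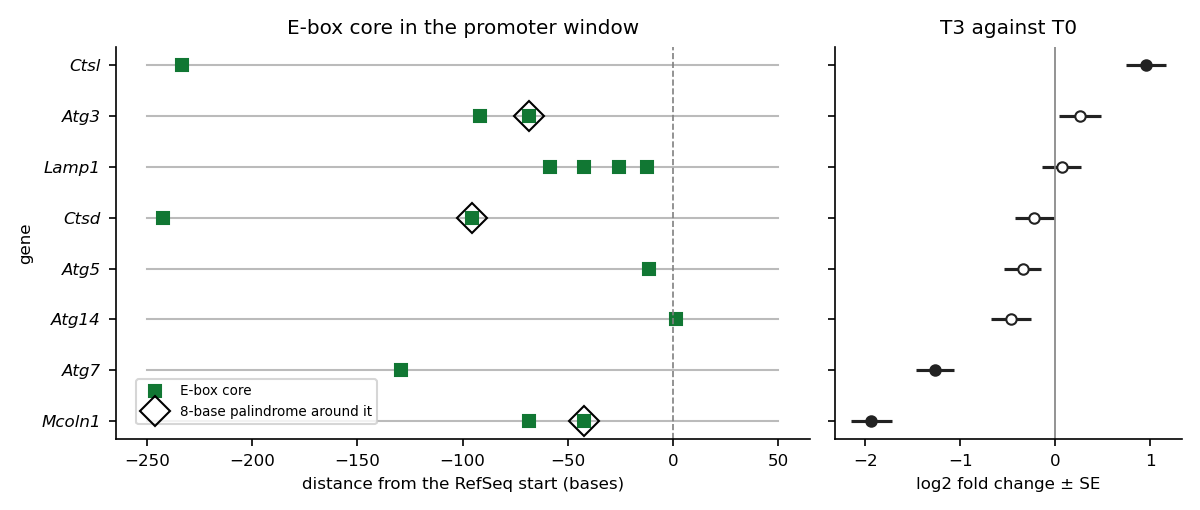
Left, distance of each E-box core from the RefSeq gene start in the 8 genes that hold it (diamonds mark the 8-base palindrome). Right, their log2 fold change ± SE, T3 against T0, with filled points called. The 4 genes with several sites run from Atg3 (0.27) to Mcoln1 (−1.94).

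Calls were also counted by gene span. Of the 9 members that span 50 kb or more, 3 were higher and 4 lower (median −0.34), against 18.2% higher and 27.5% lower of 4976 protein-coding genes of that span (median 0.08). Of the 26 shorter ones 11 were higher and 3 lower (median 0.40), against 17.3 and 26.5% of 14439 (median 0.04). Spearman's rho between span and log2 fold change was −0.35 over the 35 genes and −0.03 over 19415 protein-coding genes, as a description of genes that share the same libraries.

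Marker genes moved with the same comparison. For the counts of markers called, the shares over all genes tested were 15% higher and 22.9% lower in T3 than in T0. In T5 against T0 they were 13.2 and 22.5%. Pax7 fell from 3137 to 4440 CPM in T0 to 249 to 400 CPM in T3, and the summed level of 9 satellite cell markers from 5376 to 8018 CPM to 1565 to 1969 CPM (5 lower, 2 higher). Markers of macrophages, cells rich in lysosomes, summed to 93.2 to 109 CPM in T0 and 261 to 330 CPM in T3, with 5 of 15 higher and 1 lower. Most of that sum was Cx3cr1, whose annotated span takes in Csrnp1, Wdr48 and further genes, and without it the sums were 22.4 to 37.9 and 38.4 to 58.8 CPM. Sums over T0, T3 and T5 ran from 247 to 295, 382 to 481 and 246 to 250 CPM for 9 endothelial markers, and from 116 to 130, 144 to 205 and 124 to 126 CPM for 10 myofibre markers (8 higher and 1 lower in T3 than in T0). Those of 9 fibroblast markers (467 to 669, 258 to 478 and 241 to 249 CPM) and 8 pericyte markers (660 to 1078, 257 to 496 and 214 to 222 CPM) lay lower in T5 than in T0. Few genes carry these sums: of the fibroblast list Gsn (414 to 134 CPM) and Dpt (127 to 36.3 CPM) fell between T0 and T5, while Col1a1 (6.79 to 35.1 CPM) and Col1a2 (4.82 to 17.2 CPM) rose (2 higher, 2 lower, median 0.55). Of the pericyte list 4 were lower and 1 higher, with Notch3 at 738 CPM in T0 and 93.1 CPM in T5 and Rgs5 rising from 9.70 to 17.6 CPM. Tek was most of the endothelial sum (means of 155, 227 and 138 CPM in T0, T3 and T5). It was not called in T3 against T0 (adjusted p = 0.0594), where 4 of the 9 endothelial markers were higher and 0 lower. Of the myofibre list Ttn rose (47.5, 80.0 and 80.3 CPM) and Actn3 fell (55.1, 26.4 and 17.2 CPM). The sums of 7 neutrophil and 7 lymphocyte markers stayed at or under 15.4 CPM. No marker of any list was at 0 in all libraries, and the part of these cells in the results was not tested.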

How the data were processed

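The authors deposited raw counts per gene in 1 table of 11 libraries, made on GRCm38 with STAR (2.5.0a) and featureCounts (1.4.6-p3), which the submitters' processing notes list beside R (3.3.1) and DESeq2 (1.12.3). Libraries were directional and read as 65-bp single ends, per the labels' protocols; the strand setting and the annotation release of the counting are not given in the sources used here. The name of each column gave its group; T0 and T3 columns carry numbers where the titles carry letters, so replicates go by column number. Gene identifiers were matched to GENCODE vM21 (48349 matched, 360 did not).

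Counts were tested with edgeR 4.0.16 (R 4.3.3): quasi-likelihood F test, two-sided, TMM scaling, filterByExpr, all 3 groups in 1 fit, no covariate, n = 3, 4 and 2. A gene was called at an adjusted p (Benjamini-Hochberg, 31999 genes) under 0.05, and SE is the absolute log2 fold change over the root of the F statistic. CPM use TMM-corrected library sizes. Expressed genes inside an intron of another gene, with no shared exon, were compared with that host gene. The host's count was at least as high in 800 of 803 (opposite strands) and 910 of 911 (same strand). This is as when whole gene bodies and both strands are counted, so overlapping genes cannot be separated. Most overlaps of members are named beside them. Not named there were Gm44243 at Gabarapl1 (2.28 to 4.12% of its count) and Gm22790 at Atg2b (at most 1.00%). Nor were Gm44331 and Gm44332 at Atg7 (at most 0.684 and 0.200%) and Gm6616 at Atg14, whose count was not used here. Lengths are exonic.

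The members, lists and tests were chosen with earlier results of these data known. Values in each replicate are printed for members called in T3 against T0 with an absolute log2 change of at least 1 or called in T5 against T3; other lists name up to 3 called genes in each direction whose mean log2 CPM reaches 3, and all called in T5 against T3. Tfeb, Tfe3, the ratios, the length classes and the limit on promoter starts were added after values were seen. Alternatives were RLE and upper quartile factors, the DESeq2 1.42.0 Wald test, no filter, only the 2 groups compared, 4 separate T5 libraries, a replicate block, members free of overlaps, and each replicate left out; those for the 6 other lists were added after seeing the data.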

Additional observations from a re-analysis of the deposited data

Results flagged for a closer look

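Ctsl, cathepsin L, stood at 110 CPM in T3 replicate 3, while the other 3 T3 replicates lay between 125 and 126 CPM. The gap to the nearest of them was 0.935 of the group's range, above Dixon's 95% critical value for a group of its size. Chance alone gives such a gap in about 1 of 20 groups, and 35 were looked at. Ctsl in T3 replicate 3 was still above each T0 replicate.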

How the results depend on the processing

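No called result of a member reversed under any alternative run. T3 against T0: among the 17 members that overlap no other gene 6 were higher, and leaving out each replicate gave 12 to 15 higher and 6 to 11 lower, the 11 without T0 replicate 3. Upper quartile factors moved the median of the members from 0.29 to 0.61, and from 0.21 to 0.59 in T5 against T0. T5 against T3: 0 were higher with DESeq2 size factors (RLE) in edgeR and with the DESeq2 Wald test, 2 (Atg13 and Atg12) with only the 2 groups compared, and 0 to 1 with each replicate left out; 0 were lower in all. Over all genes this comparison called 695, but 184 (without T5 replicate B) to 2993 (only the 2 groups). T5 against T0: 5 were higher with RLE factors and with DESeq2, 8 among the members without overlap, and 5 to 14 with each replicate left out, the 5 without T5 replicate A or B, where the lone T5 sample is assumed to vary like the other groups. Lower were 5 with upper quartile factors, 5 among the members without overlap, and 4 to 12 with each replicate left out. The cause was not tested. The T0 and T3 column numbers were not shown to pair the samples: deviations from the group means of equally numbered replicates correlated at −0.173, 0.478 and 0.371, and T0 replicate 1 correlated best with T3 replicate 4 (0.572). With the replicate block 11 members were higher and 7 lower in T3 against T0; Atg4b, Tfe3 and Mitf were not called (adjusted p = 0.076, 0.0625 and 0.198). No paired analysis was possible for T5 because its columns share no number with the others.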
